A study of Mus musculus and Rattus norvegicus with 12 samples.

Results

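The 42 genes described here copy the genome or divide it: 17 act in DNA replication and 25 in mitosis. They were chosen by symbol for what their proteins do, and each was read from the reverse-strand counts of ribosomal RNA-depleted RNA. All 42 had a row among the 24411 symbols of the mouse tables and all 42 passed the filter on low counts, and 41 had a row among the 17315 symbols of the rat tables, where Cenpe was not analysed. The lowest count of a member in a mouse line was 24 (Pola1), and in a rat line 9 (Cdc25c).

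The tables cover 12 separately derived blastocyst lines. All mouse lines were of the ICR strain. They were the 3 pXEN lines pXEN2, pXEN4 and pXEN6, the 3 XEN lines numbered XEN1, XEN2 and XEN5, and ES2 and ES3, which are embryonic stem (ES) cells. The rat XENP lines were CX1 and MAX8 of the WKY strain and MAX2 and MAX3 of F344. The labels give passages 19 to 20, 17 to 18 and 19 to 21 for the pXEN lines in that order, 9 to 10 for XEN1, 20 to 21 for XEN2, 19 to 21 for XEN5, 15 to 16 for ES2 and 14 to 16 for ES3. In the rat they are 38 to 40 for CX1, 16 to 17 for MAX2, 10 to 11 for MAX3 and 11 to 12 for MAX8. Lines labelled male were pXEN2, XEN2, XEN5, ES2, CX1 and MAX3, and the others were labelled female. The labels name no transgene or engineered allele. The pXEN lines shared the culture of the rat XENP lines, XEN lines grew on mouse embryo fibroblasts in 20% fetal bovine serum (FBS), and ES lines grew in 15% FBS with LIF and the 2i inhibitors. RNA was taken after 2 days of culture. Cell type and medium therefore changed together in every mouse comparison and cannot be told apart, and p-values measure the spread between lines.

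DNA replication is prepared in the first gap phase of the cycle, when the loading factors Cdc6 and Cdt1 place rings of the Mcm helicase on origins. In S phase these rings are switched on and polymerases copy both strands on the sliding clamp Pcna, with nucleotides made by ribonucleotide reductase and thymidylate synthase. Genes of this set are classical targets of E2F transcription factors, whereas genes of mitosis peak later, under the DREAM and MuvB complexes, Foxm1 and B-Myb. These act through the cell cycle homology region (CHR) near the start of transcription, and promoters of mitosis genes often hold CCAAT boxes as well. ES cells are known for a short first gap phase, and XEN cells proliferate as stem cells of primitive endoderm, the yolk sac lineage of the blastocyst.

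The promoters of the members are shown first, since the sets are known for different promoter elements. Both strands of a 300 base window, 250 bases before to 50 after the start, were searched for the CHR element TTTGAA or its variant TTCGAA, for the CCAAT box, and for the E2F sites, spelled TTCCCGC in one form, TTCGCGC in another form and TTGGCGC in the last form. RefSeq (GRCm38.p6) gave 36 windows for 33 of the 42 members. The next 6 windows are shown 5′ to 3′ with every match in capitals, and neighbouring E2F letters can overlap. The promoters of Pola1, Mcm3, Bub1b and Cenpf belong to the called members with a window whose level differed most from ES, that of Mcm6 has overlapping E2F matches, and that of Cdk1 holds all 3 kinds of motif.
Pola1 (chrX:93632106-93632405, minus strand): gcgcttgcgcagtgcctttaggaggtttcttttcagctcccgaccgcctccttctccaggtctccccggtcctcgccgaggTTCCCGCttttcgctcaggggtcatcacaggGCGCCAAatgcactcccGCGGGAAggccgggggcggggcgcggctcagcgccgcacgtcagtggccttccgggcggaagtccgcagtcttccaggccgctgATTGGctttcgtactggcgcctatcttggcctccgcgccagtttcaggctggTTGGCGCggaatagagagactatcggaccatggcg
Mcm3 (chr1:20820263-20820562, minus strand): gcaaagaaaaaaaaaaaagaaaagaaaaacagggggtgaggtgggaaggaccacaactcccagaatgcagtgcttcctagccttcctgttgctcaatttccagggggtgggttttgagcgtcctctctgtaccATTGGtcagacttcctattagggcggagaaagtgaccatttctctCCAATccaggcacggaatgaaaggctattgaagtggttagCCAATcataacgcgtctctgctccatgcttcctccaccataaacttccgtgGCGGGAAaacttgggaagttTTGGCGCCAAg
Mcm6 (chr1:128359656-128359955, minus strand): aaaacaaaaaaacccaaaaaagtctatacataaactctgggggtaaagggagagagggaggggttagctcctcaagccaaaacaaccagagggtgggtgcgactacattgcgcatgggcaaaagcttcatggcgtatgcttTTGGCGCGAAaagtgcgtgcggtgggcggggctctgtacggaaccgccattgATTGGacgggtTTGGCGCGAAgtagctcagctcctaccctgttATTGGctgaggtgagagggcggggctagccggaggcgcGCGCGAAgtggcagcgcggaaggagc
Bub1b (chr2:118597961-118598260, plus strand): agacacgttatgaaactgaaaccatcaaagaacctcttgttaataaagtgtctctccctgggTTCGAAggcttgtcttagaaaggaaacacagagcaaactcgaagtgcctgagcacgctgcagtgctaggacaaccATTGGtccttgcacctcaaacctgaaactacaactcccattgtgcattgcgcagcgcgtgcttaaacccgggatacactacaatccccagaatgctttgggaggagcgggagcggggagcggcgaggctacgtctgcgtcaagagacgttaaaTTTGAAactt
Cenpf (chr1:189688037-189688336, minus strand): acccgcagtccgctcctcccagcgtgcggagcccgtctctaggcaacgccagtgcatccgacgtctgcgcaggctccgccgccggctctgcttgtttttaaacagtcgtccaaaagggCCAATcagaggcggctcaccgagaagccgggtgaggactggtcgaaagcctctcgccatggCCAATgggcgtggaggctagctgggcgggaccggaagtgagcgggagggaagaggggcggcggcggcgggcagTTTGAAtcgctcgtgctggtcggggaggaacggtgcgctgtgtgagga
Cdk1 (chr10:69352863-69353162, minus strand): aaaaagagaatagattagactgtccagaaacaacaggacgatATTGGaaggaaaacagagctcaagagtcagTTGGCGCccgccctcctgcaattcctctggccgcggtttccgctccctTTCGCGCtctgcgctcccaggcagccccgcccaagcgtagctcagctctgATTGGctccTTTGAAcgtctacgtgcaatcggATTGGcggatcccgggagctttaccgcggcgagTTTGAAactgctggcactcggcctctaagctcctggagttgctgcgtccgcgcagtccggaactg

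An E2F match was present in 11 of 16 replication windows (10 of 14 genes) and 3 of 20 mitosis windows (3 of 19 genes), against 8.07% of all 32851 mouse windows. A CHR match was present in 3 of 16 replication windows and 16 of 20 mitosis windows, against 19.2% of all windows. The letters TTTGAA alone stood in 2 of 16 replication and 15 of 20 mitosis windows (17.9% of all), and TTCCCGC in 8 of 16 and 0 of 20 (4.60% of all). CCAAT was common in both sets, in 10 of 16 replication and 18 of 20 mitosis windows, against 37.4% of all. The nearest CHR match lay within 50 bases of the start in 0 of the 3 replication genes and 14 of the 15 mitosis genes that had one. The nearest E2F match lay within that distance in 7 of the 10 replication genes and 0 of the 3 mitosis genes that had one. Base composition was close in the sets, with a median GC share of 57.5% in replication and 59.7% in mitosis windows and 52.7% in all windows. The 6 replication genes that were called lower than in ES and have a window held an E2F match in 5 cases, and the 8 that were not called held one in 5. A match describes these letters and is not evidence of a bound site.

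**Figure D1:**
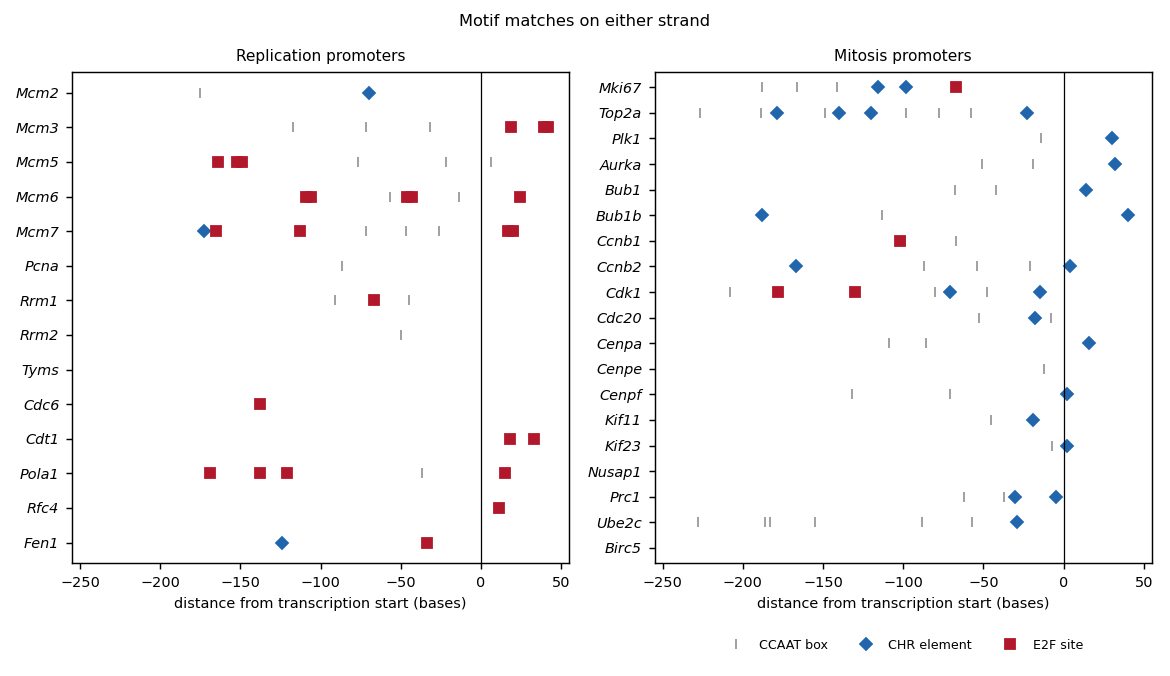
Positions of motif matches in 300 base promoter windows of 14 replication and 19 mitosis genes, in bases from the transcription start (x axis, negative is upstream, matches on either strand). Red squares are E2F sites, blue diamonds CHR elements and grey ticks CCAAT boxes; the nearest CHR element lies within 50 bases of the start in 14 of the 15 mitosis genes that have one, and the nearest E2F site in 7 of the 10 replication genes that have one.

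Each group was first checked against markers of its label. Summed endoderm markers (Gata6, Gata4, Sox17, Sox7, Pdgfra, Dab2) reached 1186 to 1398 counts per 1e6 counts (CPM) in pXEN lines, 979 to 1565 in XEN lines and 2553 to 3082 in XENP lines, against 5.35 to 6.24 in ES lines. Summed ES markers were 27.6 to 61.2 CPM in pXEN lines and 0.278 to 0.528 in XEN lines, against 3379 to 3383 in ES, and Sox2, Esrrb and Tdgf1 were at 0 in every pXEN and XEN line. In XENP lines the 4 ES markers with a rat row summed to 6.25 to 163 CPM, with Nanog, Sox2 and Esrrb at 0 in every line. Blood and endothelium markers (Ptprc, Cd68, Pecam1, Kdr, Cdh5) summed to 86.9 to 376 CPM in pXEN, 17.0 to 88.1 in XEN, 18.5 to 33.9 in ES and 47.7 to 255 in XENP. Ptprc was at 0 in every pXEN, ES and XENP line. Fibroblast markers summed to 0 to 0.574 CPM in pXEN lines (8 of 10 at 0 in every line) and 125 to 192 in XEN (9 of 10 at 1 CPM or more in every line). In ES they summed to 6.24 to 6.58 CPM, with 6 of 10 at 0 in every line. Whether they came from the mouse embryo fibroblasts or from the lines themselves was not tested. Gene counts totalled 2661691 to 3483069 per mouse line, of which the ribosomal RNA precursor Rn45s took 20.7% to 40.0% in pXEN lines, 27.1% to 39.4% in XEN lines and 38.5% to 50.1% in ES lines. Rat lines had 1047535 to 1242937 gene counts, with 65.5% to 70.1% of reads mapping to several places. In these bulk samples a smaller share of cells in a phase and less RNA per cell in that phase cannot be told apart.

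Most members were well expressed in the mouse groups, but not all. Ranked per kilobase of exon among tested genes, the median member stood at percentile 83.3 in pXEN, 81.3 in XEN and 85.8 in ES. The lowest member stood at percentile 22.2 in pXEN and 25.5 in XEN (Pola1 in each), and at 36.7 in ES (Cdc25c). Per kilobase of exon, Ccna2, the cyclin that spans S phase and mitosis, was the highest mitosis member at 115 CPM per kilobase in pXEN, 90.6 in XEN and 80.1 in ES. Rrm2, the regulated subunit of ribonucleotide reductase, led the replication set in pXEN (69.3) and XEN (62.4), while the sliding clamp Pcna led it in ES (110.5). Pola1, the catalytic subunit of DNA polymerase alpha, was the lowest replication member per kilobase in each group, at 1.09 in pXEN, 1.51 in XEN and 5.53 in ES. Between lines of 1 group the highest level of a replication gene was a median of 1.41 times the lowest in pXEN, 1.58 times in XEN and 1.21 times in ES. For mitosis genes the medians were 1.32, 1.30 and 1.18 in the same groups.

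**Figure D2:**
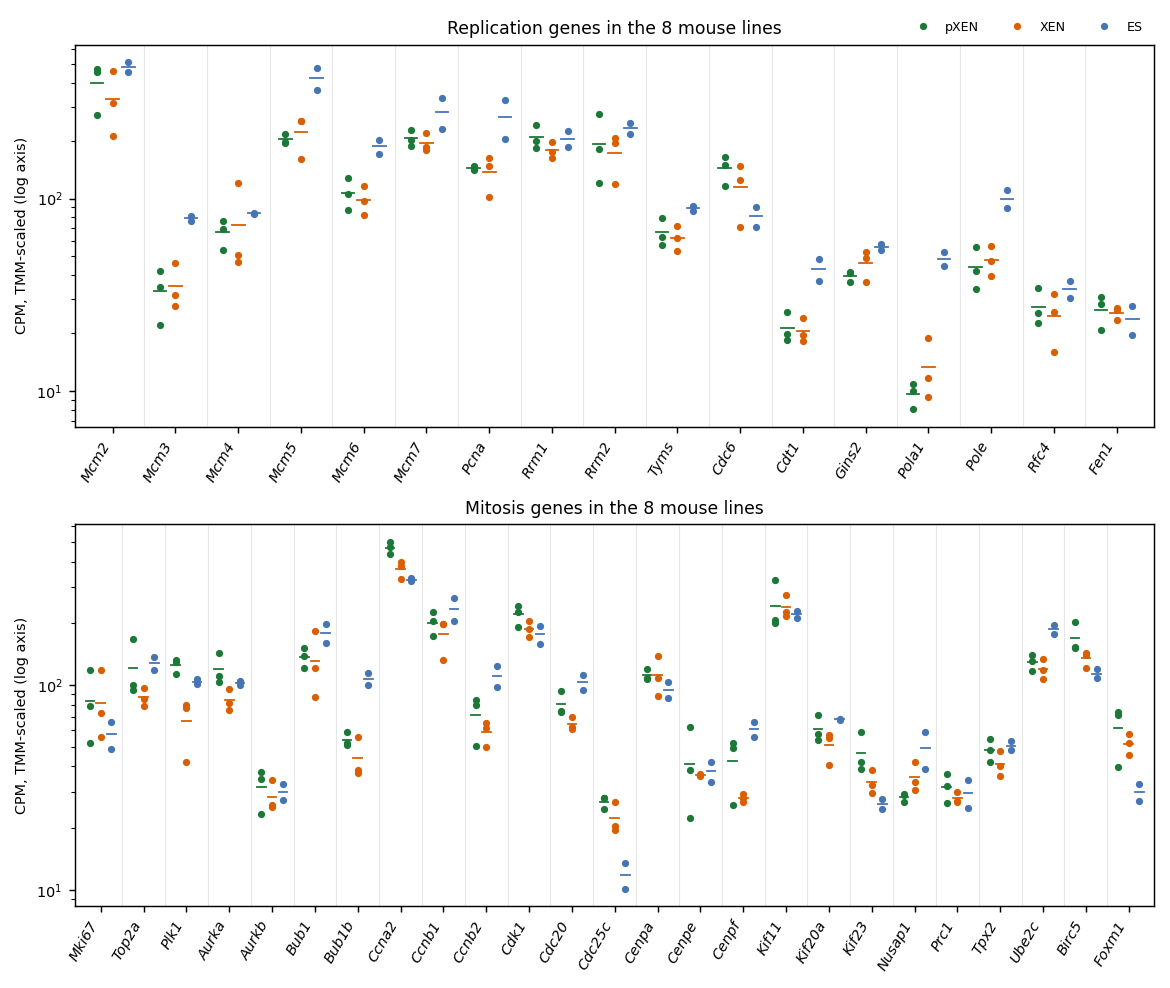
Level of every replication gene (top) and mitosis gene (bottom) in the 8 mouse lines, as CPM of the TMM-scaled library on a log axis. Each point is a line, short bars are group means, and groups stand as pXEN (green), XEN (orange) and ES (blue) within a gene; Pola1 is between 8.04 and 18.9 CPM in the 6 endoderm lines and at 44.4 and 53.0 CPM in ES.

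The comparison with ES asked whether endoderm lines carry these genes at the level of pluripotent cells. Part of the replication set was lower in both kinds of endoderm line. In pXEN against ES, 7 of 17 replication genes fell and 0 rose (adjusted p at most 0.05 by the quasi-likelihood test of edgeR, Benjamini-Hochberg adjusted over 10895 genes), where 17.8% of all genes were called lower and 18.2% higher. In XEN against ES the count was again 7 of 17 lower and 0 higher, where 17.8% of all genes were called lower and 20.7% higher. The 7 genes were Pola1, Pole, Mcm3, Mcm5, Mcm6, Cdt1 and Pcna in each case, and both comparisons use the same 2 ES lines. The median log2 fold change of the 17 genes was -0.45 in pXEN and -0.53 in XEN, beside -0.03 and 0.00 over all genes tested. All pXEN lines lay below both ES lines in 11 of the 17 genes (32.6% of all genes), and all XEN lines did so in 11 (31.7% of all genes).

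These counts leaned on one ES line. ES2 was the higher ES line in 13 of the 17 replication genes (53.1% of all genes with a mean of at least 10 CPM), and in 13 of the 25 mitosis genes. Without ES2, 1 replication gene, Pola1, was still called lower in each comparison, where 12.0% of all genes were called lower in pXEN and 10.5% in XEN. In that fit ES3 is assumed to vary like the other groups. Adjusted p of the other 6 genes was then 0.0531 to 0.274 in pXEN and 0.0720 to 0.205 in XEN, while the set's median log2 fold change was -0.44 and -0.46. Without ES3, the set's median log2 fold change was -0.44 in pXEN and -0.63 in XEN.

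Of the replication genes, Pola1 had the largest fold change in both comparisons. Pola1 had 10.9, 9.97 and 8.04 CPM in pXEN2, pXEN4 and pXEN6 and 9.35, 18.9 and 11.6 CPM in XEN1, XEN2 and XEN5, against 44.4 and 53.0 CPM in ES2 and ES3. No endoderm line came near the ES lines. Pola1 lies on the X chromosome (93304767 to 93632155, minus strand, GRCm38), and within ES the female line was the higher one while within pXEN and XEN the highest line was male. It was 5.05-fold lower in pXEN lines (log2 -2.34, SE 0.33, adjusted p = 0.000352) and 3.63-fold lower in XEN lines (log2 -1.86, SE 0.33, adjusted p = 0.00133). This was the only replication call kept under every alternative and without any 1 line in both comparisons, with adjusted p up to 0.0051 in pXEN and 0.016 in XEN. Pole, the catalytic subunit of the leading-strand polymerase epsilon (chromosome 5, 110286306 to 110337474), had 42.1, 56.1 and 33.9 CPM in the pXEN lines and 47.2, 56.7 and 39.4 CPM in the XEN lines, against 110.2 and 89.3 CPM in ES2 and ES3. It was 2.26-fold and 2.09-fold lower in pXEN and XEN (adjusted p = 0.00559 and 0.00978), with no overlap between lines.

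Of the 6 helicase subunits, Mcm3, Mcm5 and Mcm6 fell while Mcm2, Mcm4 and Mcm7 did not pass. Mcm3 had 42.1, 21.9 and 34.7 CPM in the pXEN lines and 31.6, 46.2 and 27.7 CPM in the XEN lines, against 81.0 and 76.8 CPM in the ES lines. It was 2.40-fold lower in pXEN lines (log2 -1.26, SE 0.31, adjusted p = 0.00823) and 2.24-fold lower in XEN (adjusted p = 0.0123), a call that XEN lost without ES3 as well (adjusted p up to 0.072). Mcm5 had 194, 197 and 217 CPM in the pXEN lines and 161, 252 and 254 CPM in the XEN lines, against 477 and 365 CPM in ES, and was 2.08-fold and 1.89-fold lower (adjusted p = 0.00565 and 0.0117). Neither gene overlapped with ES. Mcm6, named after its values were seen, had 106, 87.1 and 127 CPM in pXEN and 82.2, 116 and 97.2 CPM in XEN, against 202 and 171 CPM in ES. Its fold was 1.75 lower in pXEN (adjusted p = 0.0215, lost also without pXEN2, pXEN4 or ES3) and 1.90 lower in XEN (adjusted p = 0.011). Of the subunits that did not pass, Mcm2 had 457, 272 and 471 CPM in the pXEN lines and 211, 459 and 315 CPM in the XEN lines, against 509.9 and 453 CPM in ES. Its log2 fold change was -0.27 in pXEN and -0.55 in XEN (adjusted p = 0.553 and 0.202). Mcm7 had log2 fold changes of -0.45 and -0.53 and Mcm4 of -0.33 and -0.20. Without XEN2, the XEN line highest for Mcm2 and Mcm4, both were called lower in XEN. That makes 9 of 17 replication genes, where 17.1% of all genes were called lower.

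Of the loading factors, Cdt1 fell and Cdc6 did not pass. Cdt1 had 25.7, 18.5 and 19.8 CPM in the pXEN lines and 19.5, 18.1 and 24.0 CPM in the XEN lines, against 48.5 and 37.4 CPM in ES, with no overlap. It was 2.02-fold lower in pXEN and 2.09-fold lower in XEN (adjusted p = 0.0143 and 0.0111). Its partner Cdc6 had 149, 116 and 164 CPM in the pXEN lines and 71.3, 148 and 124 CPM in the XEN lines, against 90.5 and 71.3 CPM in ES. All pXEN lines exceeded both ES lines, as in 1 of 17 replication genes (30.2% of all genes), and XEN1 was level with ES3. The log2 fold change of Cdc6 was 0.82 in pXEN (SE 0.31, adjusted p = 0.0599) and 0.51 in XEN (adjusted p = 0.219). DESeq2, no low-count filter and a fit of the 2 groups alone each called Cdc6 higher in pXEN, with adjusted p down to 0.0215 over all alternatives. Gins2, part of the active helicase, had log2 fold changes of -0.49 and -0.27.

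Of the fork and nucleotide genes other than the polymerase genes Pola1 and Pole, only Pcna passed. Pcna (chromosome 2, 132249162 to 132253314, minus strand) had 148, 141 and 143 CPM in the pXEN lines and 102, 162 and 148 CPM in the XEN lines, against 325 and 205 CPM in ES2 and ES3. The endoderm lines lay below both ES lines, which differed from each other by more than the pXEN lines did. Pcna was 1.84-fold lower in pXEN (adjusted p = 0.0209, lost also without pXEN2 or pXEN6) and 1.93-fold lower in XEN (adjusted p = 0.0144). Rrm2 had 275, 120.4 and 181 CPM in the pXEN lines and 119, 194 and 206 CPM in the XEN lines, against 247 and 216 CPM in ES, and its log2 fold changes of -0.27 and -0.42 did not pass (adjusted p = 0.566 and 0.351). Its partner subunit Rrm1 had log2 fold changes of 0.03 and -0.19, Tyms, which makes thymidylate, -0.41 and -0.50, Rfc4 of the clamp loader -0.31 and -0.46, and the flap nuclease Fen1 0.17 and 0.12.

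**Figure D3:**
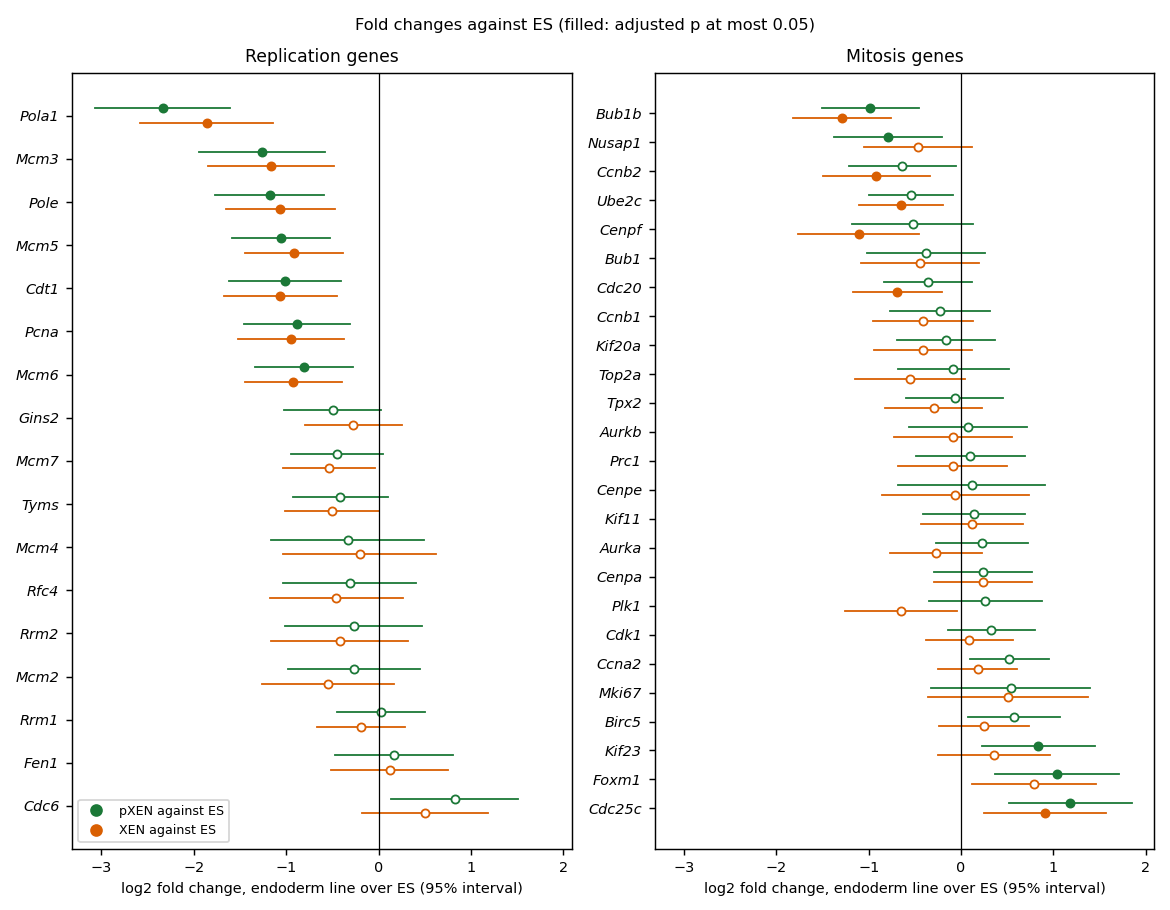
Log2 fold change of each gene in pXEN (green) and XEN (orange) against ES, with 95% intervals from edgeR's quasi-likelihood fit. Filled points have an adjusted p of at most 0.05; replication genes (left) reach from Pola1 at -2.34 in pXEN to Cdc6 at 0.82, and mitosis genes (right) lie on both sides of 0. Both comparisons use the same ES lines.

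Mitosis genes were called in both directions, and both directions together came to a share below that of all genes. In pXEN against ES, 3 of 25 genes rose (Cdc25c, Foxm1, Kif23) and 2 fell (Bub1b, Nusap1). These are 12% and 8%, where 18.2% of all genes were called higher and 17.8% lower. In XEN against ES 1 rose (Cdc25c) and 5 fell (Bub1b, Ccnb2, Cdc20, Cenpf, Ube2c). These are 4% and 20%, where 20.7% of all genes were called higher and 17.8% lower, so the lower count is near the share of all genes. Both directions together come to 5 of 25 genes in pXEN and 6 of 25 in XEN, where 35.9% and 38.4% of all genes were called. All pXEN lines lay above both ES lines in 7 of the 25 genes and below both in 7 (30.2% and 32.6% of all genes). All XEN lines lay above both in 4 and below both in 11 (31.6% and 31.7% of all genes). The median log2 fold change was 0.10 in pXEN and -0.27 in XEN, where 16 of the 25 fold changes were negative. In pXEN, 14 of the 25 fold changes were positive with TMM scaling, and with upper-quartile scaling the median was -0.0044 with 13 negative. The higher count in pXEN was 1 without pXEN2, where 1703 of 10820 genes were called higher. The lower count was 1 without any 1 pXEN line, where 14.9% to 16.3% of all genes were called lower. Calls in pXEN were also lost without either ES line. In XEN the lower count was 2 without XEN5, where 14.6% of all genes were called lower. The higher count was 0 without pXEN2 or XEN1 and 2 without pXEN4, where 2118, 1929 and 2346 of all genes were called higher. Calls in XEN were also lost without either ES line.

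Among genes of mitotic entry, Cdc25c rose in both comparisons, Foxm1 rose in pXEN and Ccnb2 fell in XEN. Cdc25c, which activates Cdk1, had 28.0, 24.8 and 28.1 CPM in the pXEN lines and 26.9, 20.6 and 19.6 CPM in the XEN lines, against 13.6 and 10.1 CPM in ES. No line overlapped with ES. In pXEN it was 2.27-fold higher, with a log2 fold change of 1.18, an SE of 0.30 and adjusted p = 0.0101 (lost without ES3), and in XEN 1.88-fold higher (adjusted p = 0.0338, lost under 7 of 15 alternatives). Foxm1, which drives late cell cycle genes, had 73.4, 39.6 and 71.5 CPM in the pXEN lines and 45.6, 52.3 and 57.3 CPM in the XEN lines, against 27.1 and 32.7 CPM in ES. It was 2.05-fold higher in pXEN (adjusted p = 0.0209, lost without pXEN2, pXEN6, ES2 or ES3), and in XEN its log2 fold change was 0.79 (adjusted p = 0.0606). Cdk1, the mitotic kinase, had 244, 192 and 228 CPM in the pXEN lines and 188, 205 and 171 CPM in the XEN lines, against 159 and 194 CPM in ES, and the groups overlapped (adjusted p = 0.261 and 0.764). Ccnb1, its cyclin, had 227, 204 and 174 CPM in the pXEN lines and 132, 198.5 and 199 CPM in the XEN lines, against 265 and 206 CPM in ES (log2 fold changes -0.23 and -0.42, adjusted p = 0.505 and 0.204). Ccnb2 had 84.6, 50.4 and 79.5 CPM in the pXEN lines and 65.1, 61.4 and 49.9 CPM in the XEN lines, against 124 and 97.8 CPM in ES. It was 1.89-fold lower in XEN (adjusted p = 0.0186, lost without XEN5 or ES2), and in pXEN the log2 fold change was -0.64 (adjusted p = 0.0842). Ccna2 was above both ES lines in every pXEN line, with a log2 fold change of 0.52 (adjusted p = 0.0575, and 0.0242 by DESeq2), and had 0.18 in XEN.

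The checkpoint and degradation genes that passed were all lower. Bub1b, which encodes the checkpoint kinase BubR1 (chromosome 2, 118598211 to 118641591), had 59.2, 52.1 and 51.1 CPM in the pXEN lines and 38.6, 55.6 and 37.3 CPM in the XEN lines, against 114 and 100.2 CPM in ES. Every endoderm line lay below both ES lines. It was 1.98-fold lower in pXEN lines (log2 -0.98, SE 0.24, adjusted p = 0.00797, lost without ES2) and 2.44-fold lower in XEN lines (log2 -1.29, SE 0.24, adjusted p = 0.00191, kept under every alternative). Cdc20, which activates the anaphase-promoting complex, had 93.8, 74.9 and 73.5 CPM in the pXEN lines and 60.8, 69.5 and 62.1 CPM in the XEN lines, against 94.99 and 111.9 CPM in ES. Ube2c, the ubiquitin-conjugating enzyme of that complex, had 139.8, 130.4 and 117 CPM in the pXEN lines and 134, 107 and 119 CPM in the XEN lines, against 178 and 197 CPM in ES. Neither gene overlapped with ES in either group, though for Cdc20 pXEN2 (93.8 CPM) came close to ES2 (94.99 CPM). Cdc20 was 1.61-fold lower and Ube2c 1.57-fold lower in XEN (adjusted p = 0.0277 and 0.0291), and each call was lost under 5 of 15 alternatives, including without XEN5, ES2 or ES3. In pXEN their log2 fold changes were -0.36 and -0.54 (adjusted p = 0.224 and 0.0639), and Bub1, partner kinase of the checkpoint, had -0.38 and -0.44 in pXEN and XEN.

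Kinetochore, spindle and cytokinesis genes were mixed. Cenpf, a large kinetochore protein, had 52.0, 25.9 and 49.1 CPM in the pXEN lines and 28.1, 27.0 and 29.3 CPM in the XEN lines, against 65.8 and 55.7 CPM in ES. It was 2.16-fold lower in XEN (log2 fold change -1.11, SE 0.30, adjusted p = 0.0134, lost without ES2), while pXEN4 alone reached the XEN level and pXEN as a group had a log2 fold change of -0.52 (adjusted p = 0.195). Nusap1, which bundles spindle microtubules, had 29.3, 26.8 and 29.0 CPM in the pXEN lines and 33.5, 42.3 and 30.7 CPM in the XEN lines, against 59.2 and 39.0 CPM in ES. It was 1.73-fold lower in pXEN (adjusted p = 0.0378, lost under 6 of 15 alternatives, among them DESeq2, each pXEN line left out, and ES2 left out), and XEN2 overlapped with ES3. Kif23, the kinesin of the midzone, had 59.2, 42.1 and 39.0 CPM in the pXEN lines and 29.6, 38.7 and 32.5 CPM in the XEN lines, against 24.7 and 27.7 CPM in ES. It was 1.78-fold higher in pXEN (adjusted p = 0.0355, lost under 5 of 15 alternatives, among them without pXEN2, XEN5, ES2 or ES3), with a log2 fold change of 0.36 in XEN. Mki67, the chromosome coat protein used as a proliferation marker, had 119, 52.1 and 79.2 CPM in the pXEN lines and 118, 55.6 and 72.7 CPM in the XEN lines, against 48.5 and 66.3 CPM in ES. Lines of 1 group differed up to 2.28-fold and overlapped with ES (adjusted p = 0.313 and 0.328). Top2a, the mitotic topoisomerase, had 167, 94.0 and 99.6 CPM in the pXEN lines and 78.7, 96.5 and 85.6 CPM in the XEN lines, against 118 and 137 CPM in ES (adjusted p = 0.839 and 0.131).

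The remaining mitosis genes did not pass in either comparison. Birc5, the survivin subunit of the passenger complex, came closest, with a log2 fold change of 0.57 in pXEN (adjusted p = 0.0684) and 0.25 in XEN. Its partner kinase Aurkb had 0.08 and -0.09. Plk1, the polo kinase, had 0.26 and -0.65 (adjusted p = 0.0843 in XEN), Aurka, the spindle pole kinase, 0.23 and -0.27, and its activator Tpx2 -0.07 and -0.29. The motors Kif11, Kif20a and Cenpe had 0.14 and 0.12, -0.16 and -0.41, and 0.11 and -0.06. The midzone bundler Prc1 had 0.10 and -0.09, and the centromeric histone Cenpa 0.24 and 0.24.

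Wider lists of the same pathways were counted in the same fits. Of 45 other replication genes, 9 fell (20% of them) and 0 rose in pXEN, where 17.8% of all genes were called lower and 18.2% higher, so the lower count is near the share of all genes. In XEN 14 fell (31.1%) and 0 rose, where 17.8% of all genes were called lower and 20.7% higher. The initiation factor Ticrr had 26.0, 23.9 and 34.4 CPM in the pXEN lines and 25.3, 22.2 and 26.9 CPM in the XEN lines, against 77.3 and 109 CPM in ES, with log2 fold changes of -1.73 and -1.91. The clamp loader subunit Rfc5 had log2 fold changes of -1.29 and -1.73, and Mcm10, which helps start the helicase, -1.22 and -1.42. The median of the list was -0.48 in pXEN and -0.56 in XEN, close to that of the 17 members. Of 44 other mitosis genes, 2 rose (Cdca3 and Nuf2) and 7 fell in pXEN, and 1 rose (Cdca3) and 10 fell in XEN, with medians of -0.24 and -0.39. The genes that fell were 15.9% of the list in pXEN and 22.7% in XEN, against 17.8% of all genes in each, and those that rose were 4.55% and 2.27%, against 18.2% and 20.7% of all genes. The lowest were the cytokinesis protein Cep55 (log2 fold changes -1.63 and -1.52), the spindle protein Ckap2 (-1.88 and -1.48) and the kinesin Kif18a (-1.13 and -1.41). Cdca3, a cell division cycle-associated protein, was 2.41-fold and 1.76-fold higher.

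Cell cycle transcription factors, which include the E2F and B-Myb system, were counted in the same way. Of 18 such genes, 1 rose (5.56%) and 7 fell (38.9%) in pXEN, where 18.2% of all genes were called higher and 17.8% lower. In XEN 1 rose (5.56%) and 5 fell (27.8%), where 20.7% of all genes were called higher and 17.8% lower. E2f6, a repressor, had 39.2, 36.4 and 50.8 CPM in the pXEN lines and 45.6, 40.0 and 45.7 CPM in the XEN lines, against 12.3 and 18.7 CPM in ES, and was 2.71-fold and 2.81-fold higher (adjusted p = 0.00287 in pXEN). Mybl2, which encodes B-Myb, had 26.0, 23.9 and 19.8 CPM in the pXEN lines and 27.7, 18.9 and 17.7 CPM in the XEN lines, against 81.4 and 97.8 CPM in ES. Its log2 fold changes were -1.95 and -2.07, with no overlap between lines. All endoderm lines of a group lay below both ES lines in 10 of the 18 genes in pXEN and 11 in XEN (32.6% and 31.7% of all genes). The activator E2f2 had log2 fold changes of -2.43 and -1.70, and the pocket protein Rbl1 -2.50 and -1.59. A further pocket protein, Rbl2, was lower in pXEN (log2 fold change -2.22, adjusted p = 0.0423) at levels of at most 12.5 CPM in every line.

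The balance of the sets was then read in each line as the mean log2(CPM + 1) of the 17 replication genes minus that of the 25 mitosis genes. Its absolute value depends on gene lengths, so only lines are compared. The score was -0.23, -0.10 and -0.14 in pXEN2, pXEN4 and pXEN6 (mean -0.16 ± 0.07, SD, n = 3) and -0.23, 0.24 and 0.12 in XEN1, XEN2 and XEN5 (mean 0.04 ± 0.24, n = 3), against 0.58 and 0.36 in ES2 and ES3 (mean 0.47 ± 0.16, n = 2). Both ES lines lay above all 6 endoderm lines. The sum of replication CPM over the sum of mitosis CPM gave 0.688, 0.671 and 0.750 in pXEN and 0.631, 0.891 and 0.792 in XEN, against 1.11 and 0.935 in ES, again with both ES lines on top. The groups differed more in the replication mean. Replication genes averaged 6.21 ± 0.10 in pXEN and 6.17 ± 0.27 in XEN, against 6.80 ± 0.16 in ES, while mitosis genes averaged 6.37 ± 0.17 and 6.13 ± 0.08, against 6.33 ± 0.00. Built from the 45 and 44 other genes of the same pathways, a step added after the values were seen, the score was -0.45, -0.33 and -0.36 in pXEN and -0.51, -0.35 and -0.39 in XEN, against -0.11 in ES2 and -0.40 in ES3. With those genes ES2 alone stood above the endoderm lines. No test was made of a score over chosen genes.

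**Figure D4:**
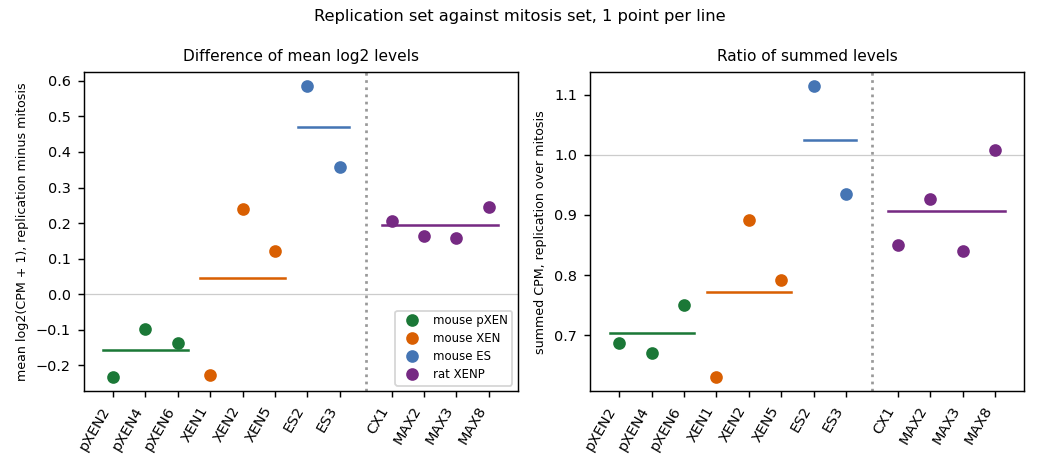
Balance of the replication set against the mitosis set, 1 point per line with group means as bars: the difference of mean log2(CPM + 1) (left) and the ratio of summed CPM (right; its axis does not start at 0). ES2 and ES3 stand highest among mouse lines, at 0.58 and 0.36 on the left; rat lines, right of the dotted line, are counted on another annotation and are not compared with mouse.

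The comparison of pXEN with XEN asked whether these genes differ between endoderm lines kept in different media. No member passed: 0 of 17 replication and 0 of 25 mitosis genes were called, where 0.918% of all genes rose in pXEN, 3.63% fell and 4.55% did either. At an unadjusted p under 0.05 there were 0 of 17 replication and 2 of 25 mitosis genes, beside 1652 of all 10895 genes. DESeq2 called 1 mitosis gene higher in pXEN, Plk1, where it called 144 of all genes higher. The 95% interval of the difference stayed within 2-fold in either direction for 16 of 17 replication and 22 of 25 mitosis genes, and the median SE was 0.25 and 0.24 on the log2 scale. Plk1 had 113, 132 and 129 CPM in the pXEN lines, against 77.2, 80.1 and 42.01 CPM in the XEN lines. The lines did not overlap, as in 6 of 25 mitosis genes that were higher in pXEN (8.32% of all genes), and the log2 fold change was 0.91 (SE 0.25, adjusted p = 0.0682, and 0.0244 by DESeq2). Plk1 was named after its values were seen. Mitosis genes leaned towards pXEN, with 24 of 25 positive fold changes and a median of 0.25, against 11 of 17 and a median of 0.07 for replication genes and 0.00 for all genes, a lean that was given no test. Without pXEN2 the mitosis median was 0.15 with 3 negative. The fibroblast markers differed in the same comparison (0 to 0.574 CPM in pXEN, against 125 to 192 in XEN), and their part in the XEN values was not tested.

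Single lines were often the highest or lowest of their group. pXEN2 was the highest pXEN line in 18 of 25 mitosis genes (28.6% of all genes with a mean of at least 10 CPM) and pXEN4 the lowest in 15 (37.9%). XEN2 was the highest XEN line in 12 of 17 replication genes (36.3% of all genes), and XEN1, at the lowest passage of the mouse lines, was the lowest in 11 (37.2%). Passage, sex and line changed together here, and their part was not tested.

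In the rat the same genes were read in 4 XENP lines without a group to set them against. CX1 was the highest line in 14 of 17 replication genes and 18 of 24 mitosis genes (36.7% of all genes with a mean of at least 10 CPM), and the lowest in 0 of either set. Its level over the mean of the 3 MAX lines had a median of 1.46 for replication genes, from 0.853 (Mcm6) to 2.03 (Rfc4), and 1.35 for mitosis genes, from 0.733 (Cdc25c) to 1.91 (Bub1). Over 7528 genes the median was 1.01. Bub1 had 527 CPM in CX1, against 287, 248 and 290.2 CPM in MAX2, MAX3 and MAX8. Mcm4 had 813 CPM in CX1, against 493, 354 and 454 CPM in the MAX lines, and Cdk1 had 333 CPM in CX1, against 212, 183 and 206 CPM. Bub1, Mcm4, Rfc4 and the genes of the next sentence were named after their values were seen. Other genes did not follow, since Mki67 had 125 CPM in CX1, against 149, 140.3 and 119.6 CPM in the MAX lines, and Bub1b had 55.5 CPM, against 68.4, 55.4 and 38.4 CPM.

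CX1 differed from the MAX lines in more than its levels. Its passage of 38 to 40 was the highest of the series, and MAX8 of the same WKY strain was the lowest line in 15 of 24 mitosis genes (24.6% of all genes with a mean of at least 10 CPM), and MAX3 in 12 of 17 replication genes (24.3% of all such genes). With 1 such line no test was possible, and the part of passage, strain or line was not tested. The score of replication minus mitosis was close in the 4 lines, at 0.21 in CX1, against 0.16, 0.16 and 0.24 in MAX2, MAX3 and MAX8 (mean of the 4 lines 0.19 ± 0.04, SD), so that both sets were high together in CX1. Over the members counted in both species the mouse means were -0.20 in pXEN, 0.01 in XEN and 0.43 in ES, values that stand beside the rat ones without a test because species, genome and annotation changed together.

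**Figure D5:**
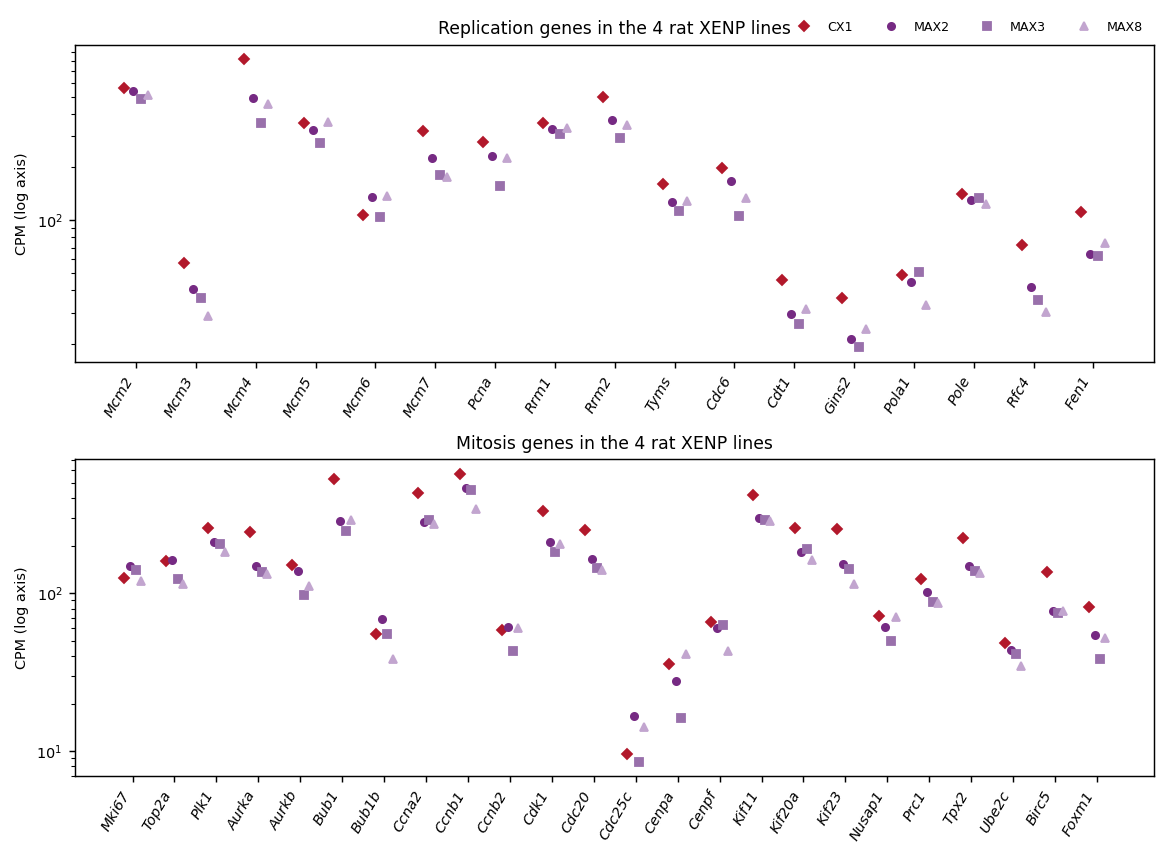
Level of every replication gene (top) and mitosis gene (bottom) in the 4 rat XENP lines, as CPM of all gene counts on a log axis. Red diamonds are CX1, and the purple symbols are MAX2, MAX3 and MAX8; CX1 is the highest line in 14 of 17 replication and 18 of 24 mitosis genes.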

How the data were processed

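RNA of 8 mouse and 4 rat lines was sequenced as strand-specific paired ends after ribosomal RNA removal, per the labels' protocols. Per gene, the authors deposited whole-number counts in unstranded, same-strand and reverse-strand columns, as the file headers and values show. The submitters' processing notes list CASAVA 1.8.2, Trimmomatic 0.33, STAR 2.5.1 and DESeq2, with builds mm10 and rn6. Which annotation was counted is not stated there. The reverse-strand column held 98.9% to 99.3% of stranded counts and was used. Rows for read classes took no part in library sizes or tests and held 73.4% to 78.3% of reads in mouse and 89.7% to 91.8% in rat. Multimapping reads were 7.84% to 9.65% in mouse, and reads of near-identical copies were not traced.

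All 8 mouse lines were fitted together with edgeR 4.0.16 under R 4.3.3 (TMM scaling, filterByExpr with minimum count 10, robust glmQLFit, glmQLFTest), and p-values were adjusted by Benjamini-Hochberg over 10895 genes with a threshold of 0.05. The script was checked on simulated counts of pXEN against ES. It called 3 of 48 genes with a true log2 fold change of -1 and 4 of 50 with 1. It called 19 of 48 with -2, 35 of 50 with 2 and 7 of 10304 with 0. Far fewer genes differed there than were called in the data, so these shares need not hold for the data. A gene that did not pass is not shown to be unchanged. SE is the absolute log2 fold change over the square root of F. Levels are CPM, in mouse of the TMM-scaled library and in rat of the plain total of gene counts, so the species are not on one scale. Gene coordinates and exon lengths come from GENCODE vM21 (GRCm38) and promoter windows from RefSeq (GRCm38.p6). Alternatives were upper-quartile and RLE scaling, DESeq2 1.42.0, no low-count filter, unstranded counts, Rn45s left out, only the 2 groups compared, and each line left out.

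Members and lists were chosen with earlier results of these data known. Values in every line are given for Mki67, Top2a, Cdk1, Ccnb1, Mcm2, Mcm5, Pcna, Rrm2, Cdt1 and Cdc6 and for up to 5 called members with the largest fold change per set, direction and comparison. Of each other list, up to 3 called genes per direction are named. Knl1, Sgo1 and Sgo2a were matched by the older symbols Casc5, Sgol1 and Sgol2a.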

Additional observations from a re-analysis of the deposited data

Results flagged for a closer look

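The 4 rat values of 41 members, and those of the score, were tested for 1 line far from the others (Dixon's test at 95%), and 7 of 42 tests were past it. All 42 tests used the same 4 lines and are not independent, and the share flagged among all rat genes was not measured. The 7 therefore cannot be set against a chance rate. CX1 was also the highest line in 36.7% of all genes with a mean of at least 10 CPM. In 6 of them CX1 was the high line: Aurka at 244 CPM, Bub1 at 527 CPM, Ccna2 at 431 CPM, Kif11 at 419 CPM, Tpx2 at 222 CPM and Birc5 at 137 CPM. The nearest MAX line had 149 CPM for Aurka, 290.2 for Bub1, 289 for Ccna2, 298 for Kif11, 149 for Tpx2 and 77.6 for Birc5. In the remaining case MAX3 was the low line, with Ccnb2 at 43.0 CPM, against 58.7, 61.0 and 59.8 CPM in CX1, MAX2 and MAX8. All 7 are mitosis genes, and the other mitosis and replication members were within the limit.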

How the results depend on the processing

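No paired analysis was possible because the mouse groups compared share at most 1 line number and each line was derived separately. The genes named by rule gave 1573 values over all comparisons and alternatives. Of these, 1478 kept their side of the threshold, 80 lost and 15 gained a call, and 0 changed direction while called. Members outside that rule, such as Mcm6 and Plk1, are not in these totals. The totals here and in the next sentence include values that were not called, among them every one of pXEN against XEN. Such values cannot lose a call, so the share lost among calls was larger than these totals show. Without ES2, 27 of 105 lost their call.

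In pXEN against ES, mitosis genes called lower numbered 1 with no low-count filter, and replication genes called higher numbered 1 (Cdc6) with DESeq2, with no low-count filter and with only the 2 groups in the fit. In XEN against ES, mitosis genes called higher numbered 0 with upper-quartile scaling, 0 with DESeq2 and 2 with no low-count filter, which also left 3 called lower. In pXEN against XEN, mitosis genes called higher numbered 1 (Plk1) with DESeq2 and with no low-count filter. Of all genes, 144 and 130 were called higher there. Upper-quartile scaling moved the median of all genes to -0.13 in pXEN and -0.11 in XEN against ES, and that of replication genes to -0.56 and -0.65. As log2 of the ratio of summed CPM, the score was -0.51 in pXEN, -0.39 in XEN, 0.0289 in ES and -0.15 in rat XENP, so the XEN and rat means changed sign, while the order of the mouse groups did not. The cause of these changes was not tested.

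Leaving out 1 line at a time gave, in pXEN against ES, 1168 to 2030 genes called higher and 1358 to 2012 lower, 0 to 4 mitosis genes higher and 0 to 2 lower, 0 to 1 replication genes higher and 1 to 7 lower, and 4 to 9 other mitosis genes, 4 to 11 other replication genes and 6 to 8 transcription factors called. In XEN against ES it gave 1277 to 2346 genes higher and 1197 to 2012 lower, 0 to 2 mitosis genes higher and 1 to 5 lower, 0 to 1 replication genes higher and 1 to 9 lower, and 4 to 12, 5 to 15 and 3 to 6 called in the other lists. In pXEN against XEN it gave 63 to 86 genes higher and 255 to 368 lower, and 0 called in each list. The score ranged from -0.19 to -0.12 in pXEN, -0.05 to 0.18 in XEN, 0.36 to 0.58 in ES and 0.18 to 0.20 in rat XENP. With 2 ES lines, differences near the threshold rest on few lines, and rat depth was lower than mouse depth.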
